A study of Mus musculus with 33 samples.

Results

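Prr5l, Mob3b, Ak5, Pgm2l1, Cd81 and 2900055J20Rik are 6 of the 23366 genes in each of the female and male count tables of mouse frontal cortex. They were picked by a small p against filtered air in an earlier analysis of these same libraries. Prr5l and Ak5 came from females exposed with nicotine, Mob3b from both female exposures, 2900055J20Rik from females exposed without nicotine, and Pgm2l1 and Cd81 from males exposed without nicotine. In the fits used here, Cd81 ranked 16 by p in its comparison and the other genes 2 to 5 in theirs. Values in those comparisons describe the genes and, given the choice, are no evidence for them. Tests of a gene outside its choice come at most from the sex that did not pick it. Calls in the picking sex, which enter the counts over the 6 genes, are descriptions. Pgm2l1 ranked 6 by p in females without nicotine, next to Mob3b at 5, which counts as picked there. The female tests of Pgm2l1 may therefore not be independent of the choice. All 6 genes passed the filter on low counts in both sexes, which kept 15158 genes in females and 15293 in males.

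The animals were C57BL/6 offspring about 1 month old. Exposure began in pregnant dams and went on in nursing dams together with their litters, to filtered air, to e-cigarette aerosol from liquid with nicotine (13 to 16 mg/mL) or to e-cigarette aerosol from liquid without nicotine. The libraries comprised 6 female air, 5 female nicotine, 5 female no nicotine, 6 male air, 6 male nicotine and 5 male no nicotine offspring, by their labels, and the study's methods state 1 pup per litter. Total counts ran from 19150562 to 27513174 in the 16 female and from 17845672 to 24787955 in the 17 male libraries. The sexes were sequenced in separate runs, so sex and run cannot be told apart, and the difference of a change between the sexes was not tested. The library labelled male nicotine replicate 21 went against its label, with Xist at 219 CPM (read count scaled to library size) and 1 read on Y-linked genes, and the differences of the 6 genes in that group and the male relations to marker scores are also given without it.

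The 6 genes belong to unrelated families. Prr5l encodes a protein that binds mTORC2, a kinase complex that phosphorylates SGK and protein kinase C. Mob3b encodes a MOB protein, a family of small adaptors best known for binding NDR and LATS kinases. Ak5 is an adenylate kinase of the brain that moves phosphate between adenine nucleotides, and Pgm2l1 makes glucose 1,6-bisphosphate, the cofactor of phosphoglucomutases. Cd81 is a tetraspanin, a membrane protein that organizes other proteins in the plasma membrane and in extracellular vesicles. In cortex, oligodendrocytes wrap axons in myelin, while glutamatergic projection neurons are most of the neurons. In bulk tissue, fewer cells of a type and less RNA per cell cannot be told apart.

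Against air, Prr5l, Mob3b and Cd81 had higher mean CPM, and Ak5, Pgm2l1 and 2900055J20Rik lower, in each of the 4 exposed groups. The edgeR quasi-likelihood test (Benjamini-Hochberg adjusted over all genes, threshold 0.01) called 6 of the 6 in females with nicotine, where 4.29% of all genes were called, and 6 of the 6 in females without nicotine, where 12.1% were called. It called 4 in males without nicotine, against 13.6% of all genes, and 0 in males with nicotine, where 0% of all genes were called. In that last comparison 2 of the 6 genes and 2203 of all genes had an unadjusted p below 0.05, and DESeq2 called 1 of the 6 and 141 of all. The median absolute log2 fold change of the 6 genes was 0.55 and 0.45 in females with and without nicotine and 0.18 and 0.52 in males, beside 0.10, 0.12, 0.07 and 0.12 over all genes. The choice of the genes sets part of these counts and sizes. The shares of all genes called also rest on single libraries: leaving out 1 library changed the 651 genes called in females with nicotine to between 226 (without nicotine replicate 2) and 930, and the 1829 without nicotine to between 823 (without no nicotine replicate 2) and 2505. Falls of over 1.5 times were also seen without air replicate 2, 5 or 6 or nicotine replicate 1 or 6 in the first comparison (267 to 353 genes), and without air replicate 6 or no nicotine replicate 3 or 5 in the second (843 to 1078 genes).

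**Figure D1:**
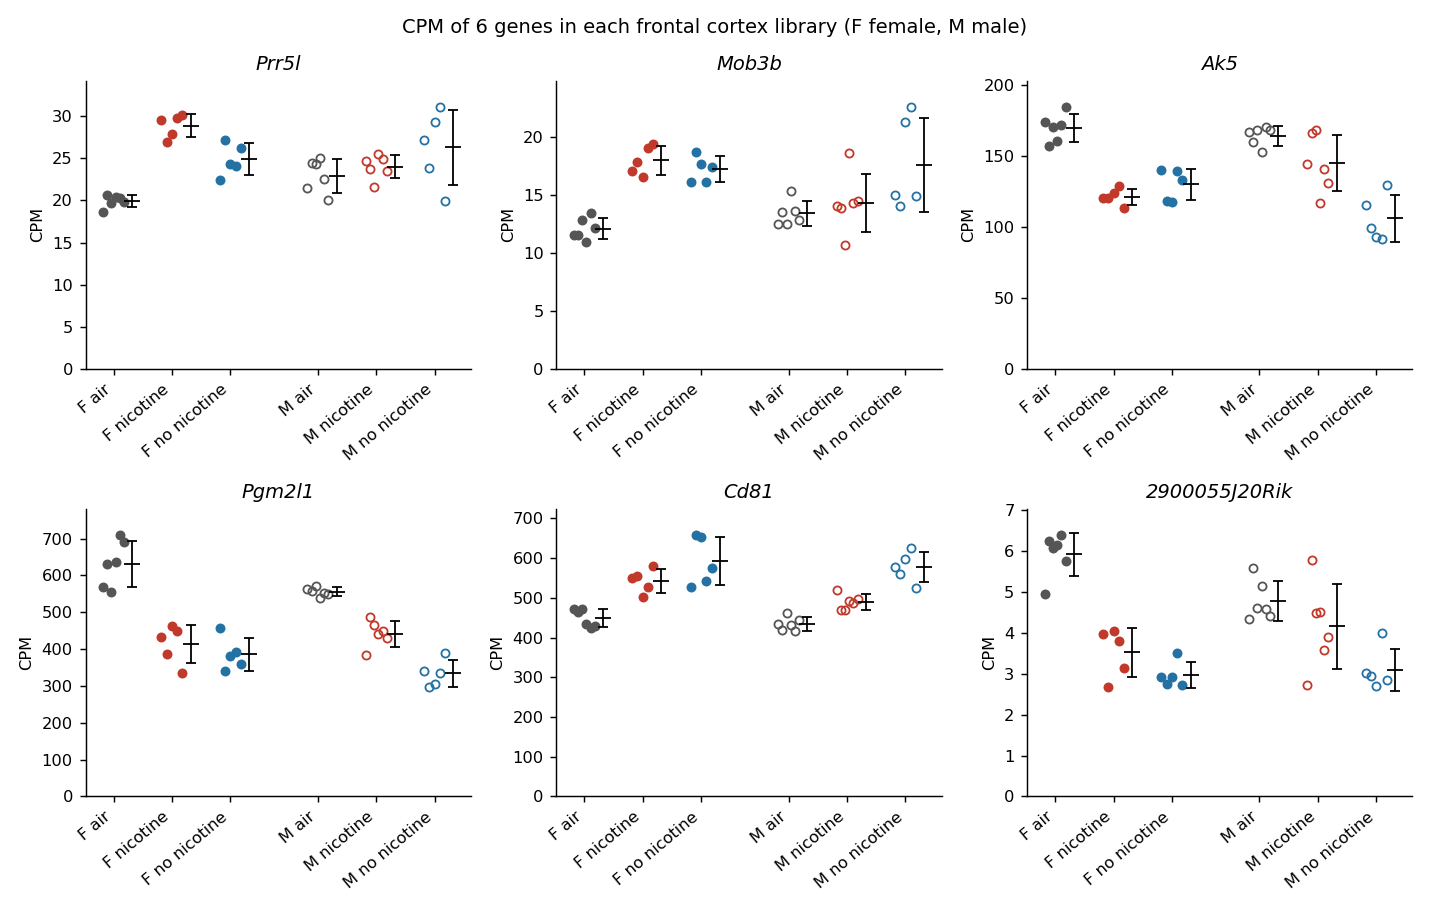
CPM of each gene (vertical axis, from 0) in each of the 33 libraries, by sex and exposure, with filled points for females and open points for males, and the mean with SD beside each group. All 6 genes separated exposed from air libraries in females, while male nicotine libraries overlapped male air libraries for 4 of the genes.

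Of the 12 comparisons with air in the sex that did not pick the gene, 6 passed the threshold. They were both female comparisons of Pgm2l1, which may not be independent of the choice, and both of Cd81. The others were the male comparison without nicotine for Ak5 and for 2900055J20Rik. Prr5l and Mob3b, picked in females, passed in neither male comparison. The smallest p that the exact permutation test of 1 gene could give was 0.00433 with 5 against 6 libraries and 0.00216 with 6 against 6. Any gene whose 5 and 6 libraries do not overlap has the former p, which is not adjusted over genes. Such separation was found for 6.67% and 10.7% of all genes in females and 12.4% in males without nicotine.

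Prr5l lies on chromosome 2 (mm9, 101554442 to 101723184, minus strand, 4967 exonic bases), and it was expressed at 4.01 ± 0.146 CPM per kb in female air (SD, n = 6). Female air libraries spanned 18.6 to 20.6 CPM (median 20.1). The female nicotine libraries had 29.6, 27.0, 27.9, 29.8 and 30.1 CPM, and those without nicotine 22.4, 27.2, 24.3, 24.1 and 26.3 CPM. Every exposed female library lay above every air library, and the fitted difference was 0.54 ± 0.051 (log2, SE) with nicotine, the comparison that picked Prr5l, and 0.32 ± 0.0512 without. In males, air libraries spanned 20 to 25 CPM (median 23.4) and nicotine libraries 21.6 to 25.5 CPM (median 24.2), and the libraries without nicotine had 27.2, 23.8, 29.3, 31.1 and 19.9 CPM. The groups overlapped, with the lowest library without nicotine (replicate 7) below all male air libraries. The male differences were 0.07 ± 0.087 with nicotine (adjusted p = 0.796) and 0.20 ± 0.0902 without (adjusted p = 0.125).

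Mob3b lies on chromosome 4 (mm9, 34896323 to 35104733, minus strand) with 6200 exonic bases and had the lowest level per length of the 6 genes, 1.95 ± 0.149 CPM per kb in female air (SD, n = 6). Female air libraries spanned 11 to 13.5 CPM (median 11.9). Female nicotine libraries had 17.1, 17.8, 16.5, 19.1 and 19.4 CPM, and those without nicotine 16.1, 18.7, 17.7, 16.1 and 17.4 CPM. The exposed groups overlapped each other and lay wholly above air, with log2 differences of 0.57 ± 0.0638 and 0.51 ± 0.0637 (SE) in the comparisons that picked the gene. Male air libraries spanned 12.4 to 15.4 CPM (median 13.2), nicotine libraries 10.7 to 18.7 CPM (median 14.1), and those without nicotine had 15, 14, 21.3, 22.6 and 14.9 CPM. The last group was split, with replicates 4 and 5 above every other male library and the other 3 within the range of male air. Its log2 difference from air was 0.39 ± 0.131 (adjusted p = 0.0359, exact permutation p = 0.0216), and with nicotine it was 0.10 ± 0.128 (adjusted p = 0.784).

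Cd81 lies on chromosome 7 (mm9, 150238644 to 150253839, plus strand, 2270 exonic bases) and had the highest level per length of the 6, 198 ± 9.86 CPM per kb in female air (SD, n = 6). It was picked in males without nicotine, so the female libraries tested it. Female air libraries spanned 423 to 471 CPM (median 449). Female nicotine libraries had 550.3, 555.3, 500.9, 526.4 and 580.9 CPM, and those without nicotine 528.2, 658.4, 651.9, 543.5 and 576.3 CPM. All 10 exposed female libraries were higher than all 6 air libraries. Cd81 rose by 0.27 ± 0.0612 (log2, SE) with nicotine (adjusted p = 0.00862, exact permutation p = 0.00433) and by 0.40 ± 0.0611 without (adjusted p = 0.000841, exact permutation p = 0.00433). The call with nicotine was lost in 9 of the 16 fits that left out 1 library, with an adjusted p of up to 0.0261: those without female air replicate 2, 4, 5 or 6, female nicotine replicate 1, 2, 5 or 6, or female no nicotine replicate 5. Male air, nicotine and no nicotine libraries spanned 415 to 461, 468 to 520 and 523.5 to 625.3 CPM, 3 ranges that did not meet. The male differences, which share samples with the choice of the gene or made it, were 0.17 ± 0.0428 with nicotine and 0.41 ± 0.0447 without.

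Ak5 lies on chromosome 3 (mm9, 152125779 to 152331104, minus strand, 3103 exonic bases) and stood at 54.7 ± 3.19 CPM per kb in female air (SD, n = 6). Female air libraries spanned 157 to 184 CPM (median 171), female nicotine libraries had 120.3, 120.2, 123.9, 129.0 and 113.1 CPM, and those without nicotine 140.2, 118.6, 117.5, 139.6 and 132.9 CPM. All exposed females were below all female air libraries, with log2 differences of -0.48 ± 0.0559 (the comparison that picked Ak5) and -0.39 ± 0.0557 (SE). In males, air libraries spanned 152 to 170 CPM (median 167). Male nicotine libraries ran from 117 to 168 CPM (median 143), and the libraries without nicotine had 115.4, 99.4, 92.8, 91.8 and 129.8 CPM. The male no nicotine group lay wholly below air and the nicotine group reached from one to the other. Ak5 fell by 0.63 ± 0.0938 without nicotine (log2, SE, adjusted p = 0.000132, exact permutation p = 0.00433). With nicotine the difference was -0.18 ± 0.0883 (adjusted p = 0.349, exact permutation p = 0.039).

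Pgm2l1 lies on chromosome 7 (mm9, 107375904 to 107427378, plus strand, 7036 exonic bases), at 89.9 ± 8.87 CPM per kb in female air (SD, n = 6). It was picked in males without nicotine. Since Pgm2l1 also ranked 6 by p in females without nicotine, the female tests may not be independent of the choice. Female air libraries spanned 555 to 710 CPM (median 634). The nicotine libraries had 432.3, 388.0, 463.2, 449.4 and 335.0 CPM, and those without nicotine 456.6, 340.5, 380.5, 392.9 and 359.2 CPM. No exposed female library reached the lowest air library. Pgm2l1 fell by 0.61 ± 0.0914 (log2, SE) with nicotine (adjusted p = 0.000867, exact permutation p = 0.00433), and it fell by 0.71 ± 0.0916 without (adjusted p = 0.000802, exact permutation p = 0.00433). Male air libraries lay within 539 to 572 CPM, nicotine libraries within 384 to 487 CPM and no nicotine libraries within 298 to 390 CPM. The last 2 groups met only through the lowest nicotine library (replicate 15, 384.0 CPM) and the highest without nicotine (replicate 7, 390.3 CPM). The male differences from air were -0.33 ± 0.0601 and -0.74 ± 0.0638 (log2, SE), from the samples that picked the gene.

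2900055J20Rik is annotated as a protein-coding gene of 1 exon and 723 bases on chromosome 18 (mm9, 40416616 to 40417338, plus strand). It had the fewest reads, 51 to 163 per library, so single libraries carry more counting error than for the other 5 genes. Female air libraries spanned 4.95 to 6.40 CPM (median 6.12), female nicotine libraries had 3.98, 2.68, 4.04, 3.81 and 3.15 CPM, and those without nicotine 2.93, 2.75, 2.92, 3.51 and 2.72 CPM. All exposed females lay below air, with log2 differences of -0.75 ± 0.108 with nicotine and -1.0 ± 0.109 without (SE), the latter being the comparison that picked the gene and the widest difference from air among the 6. Male air libraries spanned 4.35 to 5.60 CPM (median 4.6). Male nicotine libraries spanned 2.72 to 5.77 CPM (median 4.20), and those without nicotine had 3.02, 2.95, 2.70, 4.0 and 2.84 CPM. Only the male group without nicotine was wholly below air. The gene fell by 0.63 ± 0.15 there (log2, SE, adjusted p = 0.00492, exact permutation p = 0.00433), a call lost in 6 of 17 fits without 1 library (air replicate 31 or 37, or no nicotine replicate 2, 3, 4 or 7, adjusted p up to 0.0163). With nicotine the male difference was -0.20 ± 0.139 (adjusted p = 0.55).

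**Figure D2:**
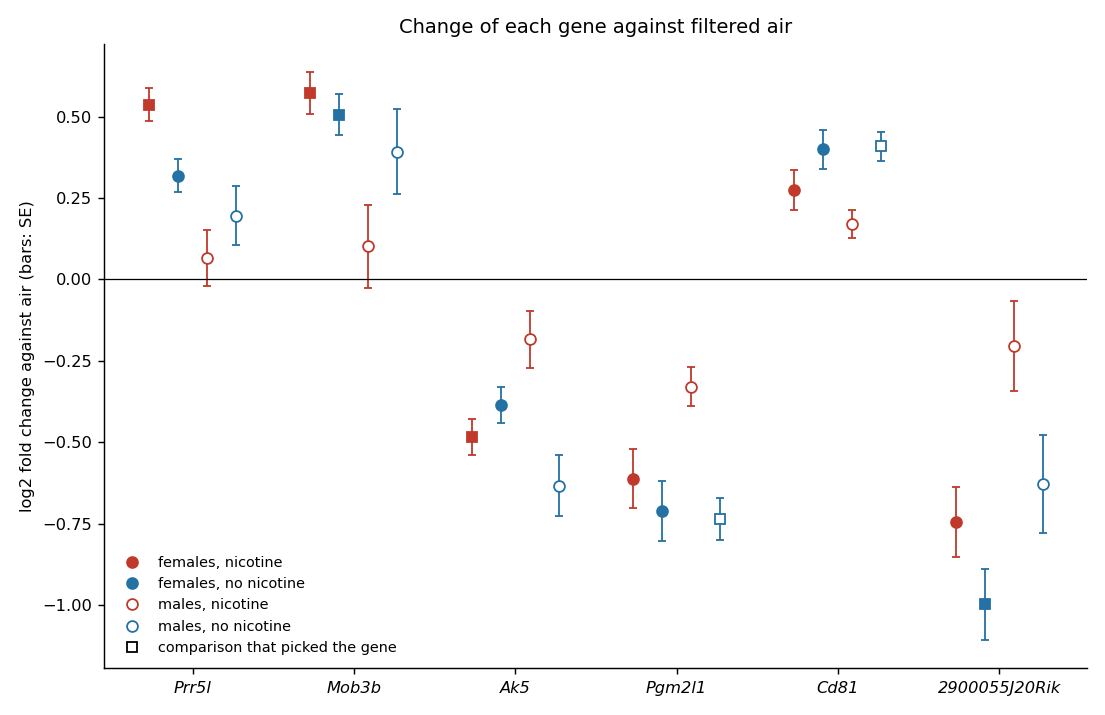
Log2 fold change against air with its SE (vertical axis) for each gene, filled for females and open for males, red with and blue without nicotine, with squares for the comparisons that picked the gene. The 4 estimates of a gene lie on 1 side of 0, and the male nicotine estimate is the one nearest to 0 for each gene.

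Without the library labelled male nicotine replicate 21, the male nicotine differences from air were 0.05 for Prr5l, 0.10 for Mob3b, 0.17 for Cd81, -0.18 for Ak5, -0.33 for Pgm2l1 and -0.16 for 2900055J20Rik on the log2 scale. The edgeR adjusted p ran from 0.0727 for Pgm2l1 to 0.862 for Prr5l, so that again none was called. The exact permutation p then was 0.442 for Prr5l, 0.554 for Mob3b, 0.0779 for Ak5 and 0.338 for 2900055J20Rik, the genes picked in females.

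The groups of a sex did not overlap in log2 CPM for 6 of the 6 genes in each female comparison with air, for 2 in males with nicotine (Pgm2l1 and Cd81) and for 4 in males without. Over all genes tested, such separation was found for 6.67% and 10.7% in females and 2.05% and 12.4% in males, with and without nicotine in turn. Genes named in the earlier analysis beside the 6 had changes of similar size. Bhlhe22, a neuronal transcription factor, had a log2 difference of -1.12 ± 0.105 in females with nicotine, Nkx6-2, an oligodendrocyte transcription factor, 0.94 ± 0.122 in females without, and the zinc transporter Slc39a10 -0.67 ± 0.0575 in males without.

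Aerosol with nicotine was compared with aerosol without it in the same fits. In females 0 of the 6 genes and 0% of all genes were called by edgeR, 2 of the 6 and 1266 of all had an unadjusted p below 0.05, and DESeq2 called 0. In males 1 of the 6 was called, Pgm2l1, beside 0.248% of all genes, and DESeq2 called 3 of the 6 (Pgm2l1, Ak5 and Cd81) and 454 of all. The 38 genes behind that share became 5 without nicotine replicate 21, 0 to 21 without 1 of 11 others (air replicate 31, 33, 37, 38 or 39, nicotine replicate 16, 17 or 22, or no nicotine replicate 3, 4 or 5), and 246, 100 and 161 without nicotine replicate 19 and no nicotine replicates 2 and 7. Pgm2l1 was 0.41 ± 0.0635 higher (log2, SE) with nicotine than without (adjusted p = 0.00639). The male samples without nicotine also picked Pgm2l1, so this difference is not independent of the choice, and without replicate 21 it was 0.40 (adjusted p = 0.0163). Ak5, picked in females, was 0.45 ± 0.0937 higher with nicotine in males (adjusted p = 0.0183, exact permutation p = 0.00866), and 0.46 higher without replicate 21 (adjusted p = 0.0322, exact permutation p = 0.0159). Cd81, picked in males, was lower in all 6 libraries with nicotine than in the 5 without it, with a difference of -0.24 ± 0.0447 (adjusted p = 0.0126), and of -0.24 without replicate 21 (adjusted p = 0.0262). Mob3b (-0.29 ± 0.131, adjusted p = 0.22), Prr5l (-0.13 ± 0.0903, adjusted p = 0.452) and 2900055J20Rik (0.42 ± 0.152, adjusted p = 0.121) did not pass in males. Without replicate 21 these were -0.29, -0.14 and 0.47, with adjusted p of 0.287, 0.466 and 0.132.

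Markers of other cells moved with the same exposures. Of 14 myelin genes, 14 and 13 were called higher in females with and without nicotine, and 0 and 12 in males. Their summed CPM ranged from 8980 to 10900 in female air, 14700 to 18700 with nicotine and 12100 to 18300 without, and from 10400 to 12700, 10600 to 16400 and 15100 to 25900 in the male groups, with the same male nicotine range without replicate 21. Of 12 genes of cortical glutamatergic neurons, 1 and 9 were called lower in females and 0 and 9 in males, and their summed CPM ranged from 2900 to 3660 in female air, 2030 to 2710 with nicotine and 1300 to 2820 without, and from 2790 to 3310, 2050 to 2780 and 1100 to 2080 in the male groups, with the male nicotine range again the same without replicate 21. All 7 markers of basal forebrain cholinergic neurons were called higher in both female groups and in males without nicotine. Of 10 striatal projection neuron markers, 5 and 3 were called higher in females and 0 and 4 in males. Of 7 markers of oligodendrocyte precursors and lineage, 3 and 4 were called higher in females and 0 and 5 in males. Of 7 interneuron markers, 2 and 4 were called higher in females and 0 and 3 in males. In each group but males with nicotine, 1 was called lower. Of 7 choroid plexus markers, 3 were called higher in males without nicotine and 0 elsewhere. None of 10 astrocyte, 10 microglia and 8 endothelium markers was called. No marker of the myelin and cortical neuron lists was at 0 in any group. The part of these cell types in the changes of the 6 genes was not tested beyond the values that follow.

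The relation of each gene to the myelin and cortical neuron scores (the mean log2 CPM of each list) was computed within groups. The group mean was subtracted from each library, so that differences between group means did not enter. Of the 6 genes, Mob3b had the highest r with the myelin score in males, while Ak5, Prr5l and Cd81 had larger absolute values than Mob3b in females. Its r was 0.904 over the 17 male libraries (rho 0.863, permutation p = 0.0002, adjusted over 24 relations 0.00288) and 0.604 over the 16 female libraries (rho 0.585, adjusted p = 0.0469 by permutation), where it was 0.57 (adjusted p = 0.0749) without the 2 libraries farthest from the median score. The male no nicotine replicates 4 and 5, which stood apart in Mob3b, were also the ones with the highest myelin scores of their group. Prr5l gave r = 0.796 in males (rho 0.797, permutation adjusted p = 0.0117) and 0.671 in females (rho 0.544, adjusted p = 0.0566). Ak5 moved the other way, with r = -0.834 in males (rho -0.809, permutation adjusted p = 0.00582) and -0.698 in females (rho -0.588, adjusted p = 0.0509). Without the 2 farthest female libraries, air replicates 1 and 2, Ak5 (-0.821, adjusted p = 0.0228) and Cd81 (0.831, adjusted p = 0.0274, from 0.644) passed 0.05. Within female air alone (n = 6), r with this score was -0.864 for Cd81, 0.721 for Pgm2l1 and 0.729 for 2900055J20Rik. These were opposite in sign to the values over all female libraries (0.644, -0.409 and -0.195). For Prr5l, Mob3b and Ak5 it was 0.733, 0.117 and -0.0825 in female air. Among all genes tested in males, 99.7% had a lower r with the myelin score than Mob3b, 99.1% than Prr5l and 0.0392% than Ak5. The female shares were less extreme, at 94.4%, 96.9% and 1.44%.

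Pgm2l1 and Cd81 were related to the cortical neuron score in females. There Pgm2l1 had r = 0.852 (rho 0.788, permutation adjusted p = 0.00288), and Cd81 had r = -0.807 (rho -0.782, permutation adjusted p = 0.00582). In males r was 0.73 for Pgm2l1 (rho 0.377, permutation adjusted p = 0.0469) and -0.299 for Cd81 (rho -0.164, adjusted p = 0.534). The rank correlation of Pgm2l1 in males was far lower than r. Without the 2 farthest libraries these male values were 0.806 for Pgm2l1 (adjusted p = 0.0531) and -0.747 for Cd81 (adjusted p = 0.0456), so that Pgm2l1 no longer passed the threshold of 0.05 and Cd81 did. Mob3b had r = -0.653 with this score in females (rho -0.685, permutation adjusted p = 0.0395), and -0.579 without the 2 farthest libraries (adjusted p = 0.0809). Cd81 also gave r = 0.697 with the myelin score in males (rho 0.667, permutation adjusted p = 0.0411), which fell to 0.435 (adjusted p = 0.191) without the 2 libraries farthest from the median score. For 2900055J20Rik r was 0.609 with the cortical neuron score in females (rho 0.674, permutation adjusted p = 0.0566) and between -0.195 and 0.268 in its other 3 relations. Without the 2 farthest libraries r remained 0.871 for Mob3b, 0.651 for Prr5l and -0.865 for Ak5 with the myelin score in males, and 0.87 for Pgm2l1 and -0.772 for Cd81 with the cortical neuron score in females. Without the library labelled male nicotine replicate 21, an alternative chosen after seeing the data, r in males was 0.904 for Mob3b, 0.798 for Prr5l, -0.835 for Ak5 and 0.698 for Cd81 with the myelin score and 0.73 for Pgm2l1 with the cortical neuron score. The scores themselves were related in females (r = -0.625, rho -0.626, permutation p = 0.0274) and not detectably in males (r = -0.00186, rho 0.0319, permutation p = 0.996). The female relations were not particular to these scores, though no p was computed for other marker lists. Cd81 had r = 0.883 with oligodendrocyte precursors and lineage in females and 0.574 in males. Pgm2l1 had -0.736 and -0.385 with interneurons and -0.718 and -0.5 with basal forebrain cholinergic neurons. Ak5 had -0.724 and -0.172 with interneurons.

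**Figure D3:**
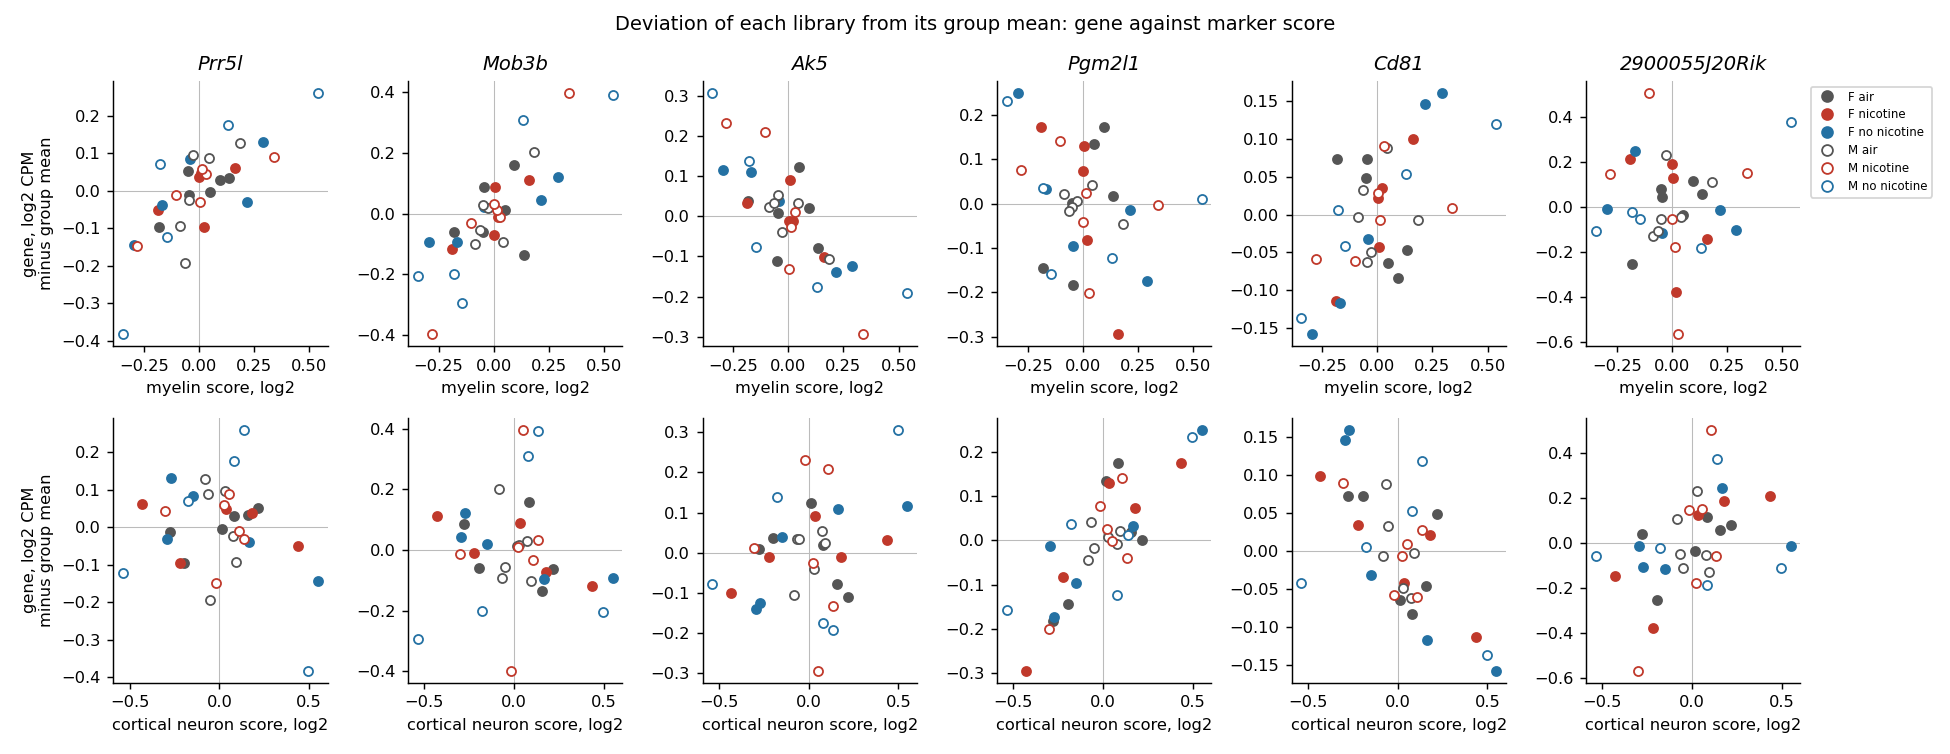
Each point is 1 library, placed by its deviation from its group mean in the myelin score (upper row) or the cortical neuron score (lower row) on the horizontal axis and in the gene's log2 CPM on the vertical axis, with filled points for females and open points for males. Mob3b and Prr5l rise and Ak5 falls along the myelin score, whereas Pgm2l1 rises along the cortical neuron score.

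With the myelin score as a term of the edgeR fit, 0 of the 6 genes and 0 of all genes were called in either female comparison with air. In males without nicotine 1 of the 6 (Pgm2l1, in the comparison that picked it) and 70 of all genes were called. The Prr5l and Mob3b differences in males without nicotine went from 0.20 and 0.39 to -0.16 ± 0.0961 and -0.21 ± 0.104 (log2, SE), and Ak5 went from -0.63 to -0.26 ± 0.086 (adjusted p = 0.084). The other 3 changed less there, with Pgm2l1 at -0.63 ± 0.0934 from -0.74 and Cd81 at 0.28 ± 0.057 from 0.41, both in the comparison that picked them, and 2900055J20Rik at -0.80 ± 0.235 from -0.63. In females with nicotine Cd81 went from 0.27 to 0.02 ± 0.103, whereas 2900055J20Rik went from -0.75 to -0.63 ± 0.227, and without nicotine from -1.0 to -0.90 ± 0.2. The other female values with nicotine were 0.33 ± 0.0885 for Prr5l, 0.33 ± 0.112 for Mob3b, -0.23 ± 0.0891 for Ak5 and -0.36 ± 0.168 for Pgm2l1.

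With the cortical neuron score as the term, 0 of the 6 were called in any comparison with air, beside 1 and 0 of all genes in females with and without nicotine and 0 and 13 in males. In females with nicotine Prr5l stood at 0.48 ± 0.07 from 0.54, Mob3b at 0.43 ± 0.0761 from 0.57, Ak5 at -0.39 ± 0.0714 from -0.48 and 2900055J20Rik at -0.51 ± 0.134 from -0.75. Pgm2l1 went from -0.61 to -0.32 ± 0.0747 and Cd81 from 0.27 to 0.10 ± 0.0583 there, and in females without nicotine Pgm2l1 went from -0.71 to -0.28 ± 0.0937. In males without nicotine Mob3b was higher with the score in the fit, at 0.61 ± 0.239 from 0.39. The other genes were nearer to no change there. Pgm2l1 stood at -0.47 ± 0.0866 from -0.74 (edgeR adjusted p = 0.0271), 2900055J20Rik at -0.39 ± 0.28 from -0.63 and Ak5 at -0.50 ± 0.165 from -0.63. Cd81 stood at 0.34 ± 0.0798 from 0.41 and Prr5l at 0.10 ± 0.17 from 0.20. The scores differ between the groups, so such fits can separate exposure and score only through the libraries within groups. They hold all 33 libraries and were not run without replicate 21.

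**Figure D4:**
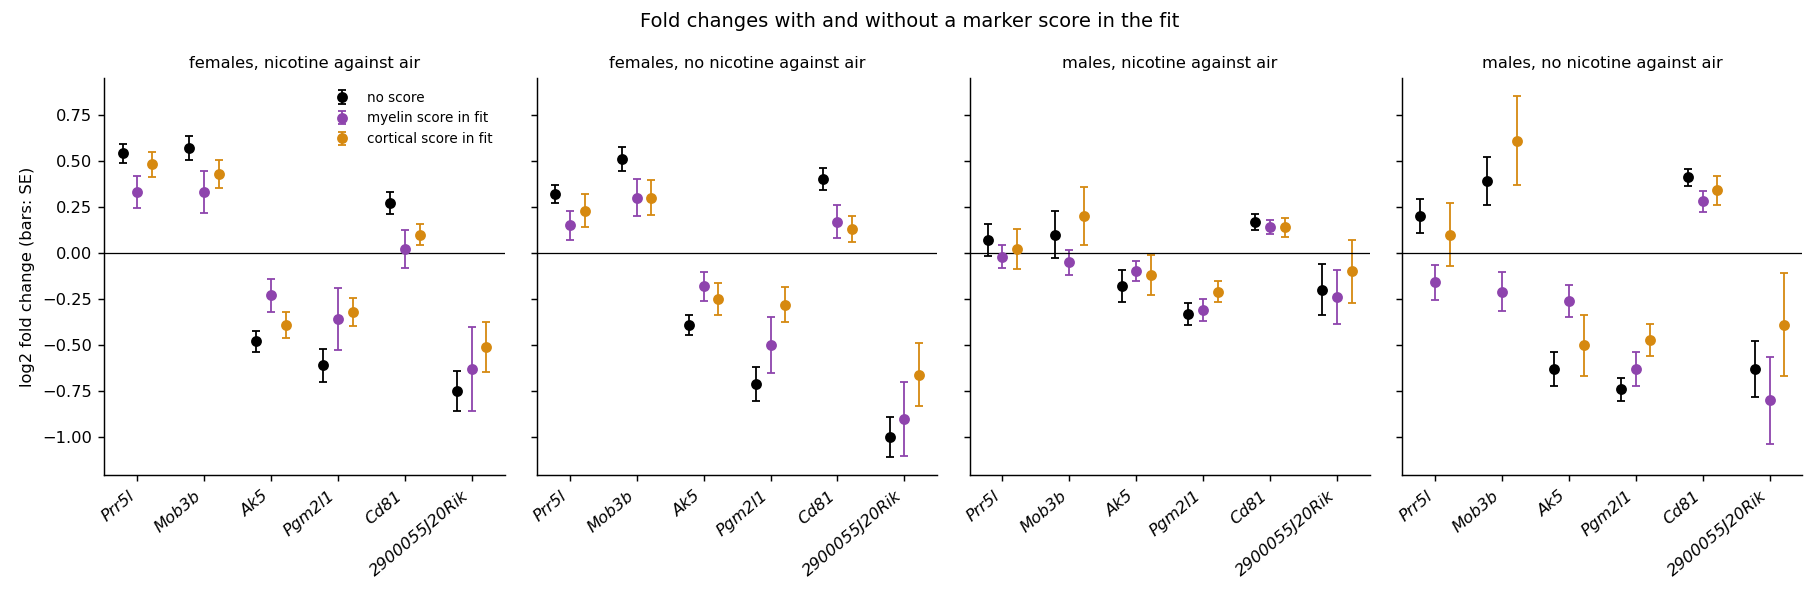
Log2 fold changes against air with SE (vertical axis) for the 6 genes in the 4 comparisons, without a score (black), with the myelin score (purple) or with the cortical neuron score (orange) in the fit. In males without nicotine the Prr5l and Mob3b estimates cross 0 with the myelin score. Pgm2l1 goes from -0.74 to -0.63 there, in the comparison that picked it.

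The likeness of other genes to each of the 6 was measured as r of log2 CPM, centred on the mean of the sex, over the 33 libraries and 11322 genes. It is a description only, since these libraries include the exposure groups and share all the differences between them. Mob3b was most like Myo1d (0.953), Gsn (0.946), Ugt8a (0.933), an enzyme of myelin galactolipid synthesis, and Slc12a2 (0.932), and least like Btbd9 (-0.876) and Camkk1 (-0.872). For Prr5l the most like were Tmem63a (0.915), Tmem88b (0.899), Plekhh1 (0.895) and the transferrin gene Trf (0.878), and the least like Btbd9 (-0.833) and Ulk1 (-0.809). Cd81 was nearest to Scd2 (0.964), a fatty acid desaturase, Parvb (0.953), Serpine2 (0.948) and Sparc (0.948), and opposite to Sprn (-0.958) and to the synapsin gene Syn1 (-0.952).

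For the genes that were lower with aerosol, likeness was read in the same way. Ak5 was most like Ildr2 (0.938), Prdm8 (0.928), Neurod1 (0.928), a neuronal transcription factor, and Nptx1 (0.927), a neuronal pentraxin, and least like the myelin protein gene Mbp (-0.943). Pgm2l1 went with Syt16 (0.965), Ppm1h (0.963), Kif3c (0.961), a kinesin, and Ptpn3 (0.957), and against Cd81 (-0.944) and Slc25a1 (-0.935). 2900055J20Rik had Kif3c (0.892), Frrs1l (0.884), D430041D05Rik (0.882) and Mal2 (0.88) as its nearest and Cachd1 (-0.846) and Apeh (-0.845) as its farthest. Wide parts of the transcriptome moved with each gene, as 19.5% of genes had an absolute r above 0.5 with Prr5l and 40.5% with Cd81.

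Relatives and pathway partners of the 6 genes were read from lists chosen by function. Calls in the lists are to be read beside the shares of all genes called, 4.29% and 12.1% in females with and without nicotine, 0% in males with and 13.6% in males without. Of 16 tetraspanins and partners of Cd81, 3 were called higher and 0 lower in females with nicotine, 4 and 1 in females without, and 6 and 1 in males without. Cd9, the tetraspanin most often found with Cd81, rose by 0.29 ± 0.0601, 0.32 ± 0.0599 and 0.35 ± 0.0711 (log2, SE) in these comparisons, Cd82 by 0.43 ± 0.0617, 0.42 ± 0.0616 and 0.58 ± 0.0941, and Tspan2, a tetraspanin of oligodendrocytes, by 0.62 ± 0.109, 0.54 ± 0.109 and 0.59 ± 0.134. Tspan15 rose in females and males without nicotine (0.42 ± 0.0894 and 0.42 ± 0.0904). The median change of the list was 0.07, 0.08 and 0.13, beside 0.00, 0.01 and 0.02 over all genes. The list of 15 genes for mTORC2 and its substrates also holds Rptor, a subunit of mTORC1. Of the 15, 1 was higher and 1 lower in females with nicotine and 2 and 2 in males without. In females without nicotine the counts were 0 and 2, a share near that of all genes. Prr5, the close relative of Prr5l, rose in males without nicotine (0.64 ± 0.0996, adjusted p = 0.000182) and had an adjusted p of 0.0427 in females without. Prkca, a protein kinase C, fell in both sexes without nicotine (-0.48 ± 0.114 and -0.49 ± 0.108), and Ndrg1, a target of SGK that is abundant in oligodendrocytes, rose in females with nicotine (0.40 ± 0.0852) and males without (0.37 ± 0.0718).

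In the list of 13 MOB proteins and their kinases, 0 were called in females, and 1 was called lower in males without nicotine, Mob1b (-0.22 ± 0.0544), a share below that of all genes. Mob3a, a close relative of Mob3b, had a log2 difference of 0.31 ± 0.0803 (adjusted p = 0.0102) in females without nicotine and 0.25 ± 0.0803 (adjusted p = 0.0279) in males without. Of 12 tested adenylate kinases and phosphoryl transfer enzymes, 0 were called higher and 1 lower in females with nicotine. The counts were 1 and 1 in females without and 2 and 1 in males without. Prkaa2, a catalytic subunit of AMP-activated kinase, was lower in females with and without nicotine (-0.38 ± 0.0821 and -0.50 ± 0.0823) and in males without (-0.51 ± 0.0858). Ak7, an adenylate kinase of cilia, rose in females and males without nicotine (1.92 ± 0.441 and 1.5 ± 0.372). Ak1, an adenylate kinase of the cytosol, lay within -0.05 to -0.01 on the log2 scale in all 4 comparisons and was not called. Among 18 genes of hexose phosphate use, 0 were called higher and 1 lower in females with nicotine and 1 and 1 in females without. These shares were near those of all genes, and in males without nicotine the counts were 2 and 3. Pgm2 rose in females and males without nicotine (0.37 ± 0.0604 and 0.30 ± 0.0546), opposite to Pgm2l1. The phosphofructokinase Pfkl fell in the 3 comparisons with calls (-0.28 ± 0.0525, -0.29 ± 0.0524 and -0.23 ± 0.0465). In males with nicotine, where no gene of the whole table was called, the 5 lists had 0 calls as well.

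The genes beside the 6 on the chromosome were compared in the same way. Kctd16, which encodes an auxiliary subunit of GABA-B receptors, lies 676 bases from 2900055J20Rik on the same strand. Kctd16 differed from air by -0.69 ± 0.0915 and -0.86 ± 0.0919 (log2, SE) in females with and without nicotine, -0.30 ± 0.0896 (adjusted p = 0.126) in males with and -0.73 ± 0.0961 (adjusted p = 5.2e-05) in males without. Both genes were lower than in air in each comparison, and whether reads of the short gene come from a Kctd16 transcript was not tested. Yipf5 on the other side lay between -0.02 and 0.01. The neighbours of Prr5l (Traf6 and Commd9), Ak5 (Usp33 and Pigk) and Pgm2l1 (Lipt2 and P4ha3) were not called in any comparison with air, and of those of Mob3b and Cd81, 3110043O21Rik and Tssc4 were called higher in males without nicotine (0.22 ± 0.0501 and 0.22 ± 0.0532).

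**Figure D5:**
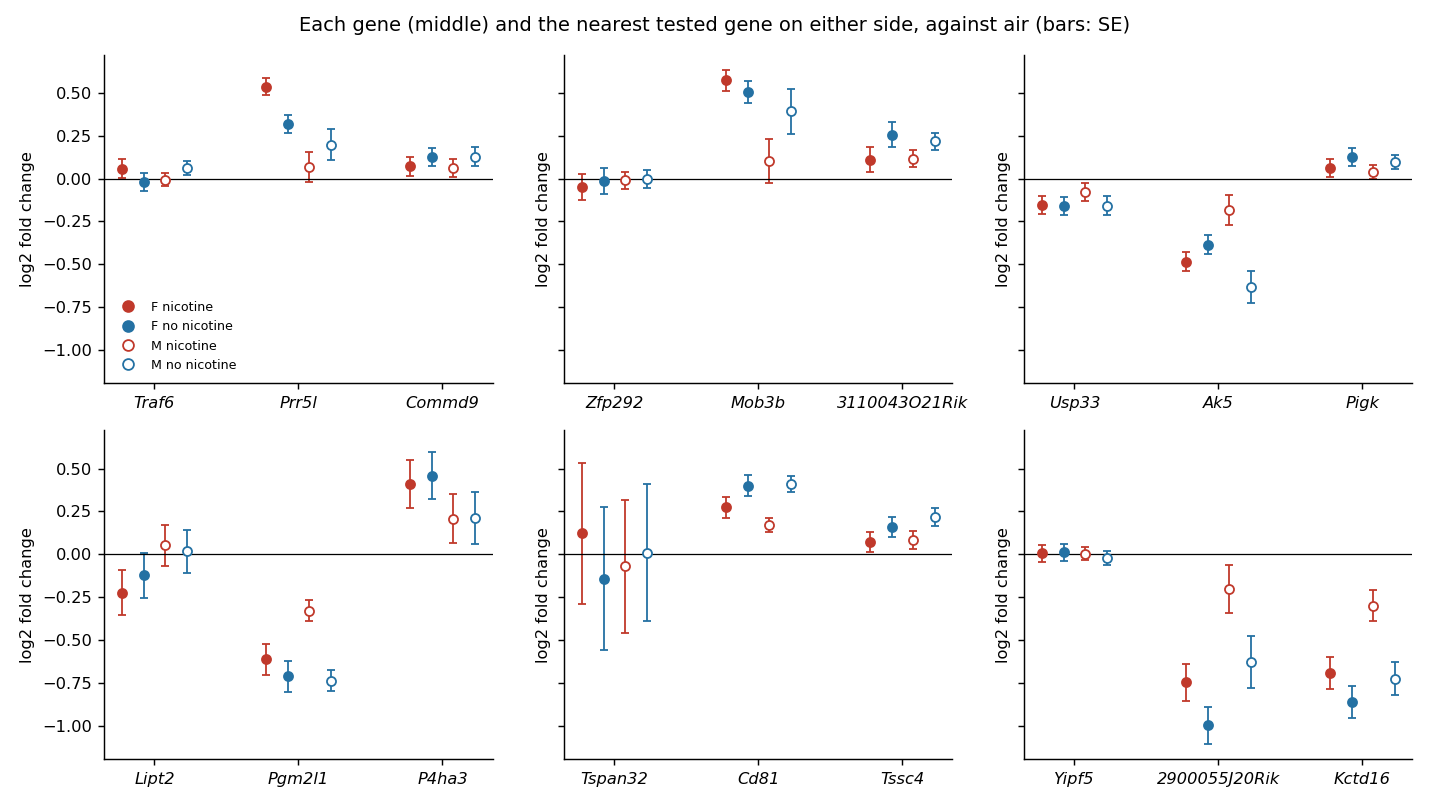
Log2 fold change against air with SE (vertical axis) of each gene, in the middle of its panel, and of the nearest tested gene on either side, filled for females and open for males, red with and blue without nicotine. Kctd16 follows 2900055J20Rik, while the neighbours of the other 5 genes lie nearer to 0 than the gene itself in most comparisons.

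Antisense genes share few exonic bases with the 6. They were 78 bases of Prr5l with Gm13905, 12 and 33 bases of Ak5 with Zzz3 and AI115009, and 30 bases of Cd81 with R74862, and the strand used in counting is not given in the sources used here. Of the 50-base windows in the exons, 1.12% for Mob3b, 0.731% for Pgm2l1 and 0.0236% for Prr5l recurred in coding transcripts of other genes, and 0 for the other 3.

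Promoters of 4 of the 6 genes are in the RefSeq table (GRCm38.p6), and they are shown because Prr5l, Mob3b and Cd81 moved against Pgm2l1. Each runs from 250 bases before to 30 after the annotated start, in lower case 5′ to 3′, with capitals for motifs found on either strand. They are the GC box core GGGCGG, the box named CCAAT, the TATA box form TATAAA, the E-box CACGTG, and the letters ACAAT held by many SOX motifs. Overlapping matches were each counted. For Prr5l the first of its 3 listed starts is printed, and which start is used in cortex was not tested.
Prr5l (chr2:101882998-101883277, minus strand): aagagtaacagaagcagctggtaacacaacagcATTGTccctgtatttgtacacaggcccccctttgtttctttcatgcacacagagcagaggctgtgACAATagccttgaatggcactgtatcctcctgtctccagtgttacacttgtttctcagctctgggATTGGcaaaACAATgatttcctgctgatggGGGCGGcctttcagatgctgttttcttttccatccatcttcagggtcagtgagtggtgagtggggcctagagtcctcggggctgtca
Mob3b (chr4:35157455-35157734, minus strand): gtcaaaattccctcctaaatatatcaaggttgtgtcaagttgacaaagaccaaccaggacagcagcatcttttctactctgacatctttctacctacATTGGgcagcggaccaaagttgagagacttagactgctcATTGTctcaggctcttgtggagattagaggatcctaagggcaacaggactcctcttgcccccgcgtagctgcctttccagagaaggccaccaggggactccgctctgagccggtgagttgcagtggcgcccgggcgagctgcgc
Cd81 (chr7:143052500-143052779, plus strand): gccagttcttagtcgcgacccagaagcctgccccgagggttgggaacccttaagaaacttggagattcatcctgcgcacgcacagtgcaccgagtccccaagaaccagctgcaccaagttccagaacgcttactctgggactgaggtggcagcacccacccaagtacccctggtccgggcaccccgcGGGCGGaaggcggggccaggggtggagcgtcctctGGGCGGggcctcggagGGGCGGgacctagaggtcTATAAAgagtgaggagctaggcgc
Pgm2l1 (chr7:100227357-100227636, plus strand): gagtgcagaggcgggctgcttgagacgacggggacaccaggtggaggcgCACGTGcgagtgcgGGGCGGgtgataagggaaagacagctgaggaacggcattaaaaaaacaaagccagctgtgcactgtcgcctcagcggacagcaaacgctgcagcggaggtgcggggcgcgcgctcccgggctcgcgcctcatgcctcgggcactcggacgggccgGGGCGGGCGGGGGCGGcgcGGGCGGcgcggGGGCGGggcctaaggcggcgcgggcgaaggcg

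The promoters differed in base composition. Pgm2l1 had 38 CG pairs, more than 96.4% of the 32851 promoters of the same length, whereas Cd81 had 17, Mob3b 9 and the 3 Prr5l starts 2, 2 and 11, beside a median of 6. GGGCGG was found 6 times for Pgm2l1, 3 times for Cd81, 1 time at the printed Prr5l start, and neither at its other starts nor for Mob3b, and 34.7% of all promoters hold it. The Prr5l start and Mob3b each had 1 CCAAT (held by 36.1% of all promoters) and had 3 and 1 ACAAT (29.8%), neither of which was in the Cd81 and Pgm2l1 windows. Cd81 had 1 TATAAA (13.1%) and Pgm2l1 1 CACGTG (6.79%). These matches describe the letters alone.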

How the data were processed

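RNA-Seq libraries of frontal cortex were analysed from 33 offspring. The authors deposited raw read counts per gene, 1 table per sex, made from single reads mapped to the mm9 transcriptome with Bowtie, cleared of PCR copies by SAMtools, and assigned to genes by HTSeq, so the counts lack duplicate reads. Tables of normalized values were also deposited and were not used here. Among the raw columns 1 matched no labelled sample and was not used.

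Genes with a CPM summed over a sex of at least 5 were tested, and removed genes took no more than 0.0341% of a library's counts. TMM factors scaled the counts, and edgeR 4.0.16 tested them by quasi-likelihood, the 3 groups of a sex in 1 fit, with Benjamini-Hochberg adjustment over all genes and a threshold of 0.01. CPM values use the TMM factors, and log2 CPM a prior count of 1. Exact permutation tests of single genes were two-sided. Relations to scores used 100000 permutations within groups, two-sided, adjusted over 24 relations, with a threshold of 0.05. Total counts were 17845672 to 27513174 per library, and the p-values measure the spread between animals. The study's methods name separate chambers for the exposures, so exposure and chamber cannot be told apart. By those methods, the authors also excluded outlier samples found by principal component analysis. Alternatives were DESeq2 1.42.0, its size factors, upper quartile normalization, other filters (none, or CPM of at least 1 in at least 5 samples), 2-group fits, marker scores as covariates, a replicate block and leaving out each library. The edgeR and DESeq2 fits were tested on simulated data.

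The 6 genes, the gene lists and the tests were chosen with earlier results of these data known. The text names the 6 genes, per gene the 4 most and 2 least alike, the nearest tested gene on either side, family genes called against air in both sexes (or else the 2 with the smallest p), the relatives Prr5, Mob3a, Ak1, Pgm2 and Cd9, and Bhlhe22, Nkx6-2, Slc39a10 and Kctd16. Some genes under this rule are not reported here. Software was matplotlib 3.10.9, scipy 1.17.1, pandas 2.3.3 and Python 3.11.15, with R 4.3.3 for the fits.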

Additional observations from a re-analysis of the deposited data

Results flagged for a closer look

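In 36 groups of 5 or 6 libraries (6 genes in 6 groups), 2 single libraries stood apart by Dixon's test, and chance marks about 1 in 20 groups. Both concern 2900055J20Rik. Female no nicotine replicate 4 had 3.51 CPM, with the next library at 2.93 CPM, and male no nicotine replicate 5 had 4.0 CPM, with the next at 3.02 CPM. Each was the highest of its group and still lay below every air library of its sex.

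Pgm2l1 differed between the exposures in males, at 0.407 higher (log2) with nicotine than without, by the edgeR test of that difference (adjusted p = 0.00639). The male libraries without nicotine took part in the choice of this gene. In 9 of 17 fits that left out 1 library the call was lost, with an adjusted p of up to 0.0231, among them the fit without the library labelled male nicotine replicate 21.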

How the results depend on the processing

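The counts of called genes among the 6 were within 1.5 times their value under DESeq2 size factors, upper quartile normalization and both other filters on low counts. Under DESeq2 they became 1 in males with nicotine against air and 3 in males with against without nicotine, and with only the 2 groups compared 1 and 0. With the myelin score as covariate they were 0 and 0 in females with and without nicotine, 1 in males without nicotine and 0 in males with against without, and with the cortical neuron score 0 in each of these. Without 1 library at a time they ranged from 5 to 6 and stayed at 6 in females with and without nicotine, from 3 to 4 in males without and from 0 to 3 in males with against without nicotine (0 without air replicate 31 or 37, nicotine replicate 16, 17, 21 or 22, or no nicotine replicate 3, 4 or 5, and 3 without nicotine replicate 19 or no nicotine replicate 7).

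Over all genes, 651 were called in females with nicotine, against 1319 with DESeq2, 136 with the replicate block, 0 with the myelin and 1 with the cortical neuron score. In females without nicotine 1829 were called, against 736, 0 and 0 under the last 3. In males with nicotine 0 became 141 with DESeq2 and 17 with only the 2 groups compared, in males without 2084 became 70 and 13 with the scores, and between the exposures in males 38 became 454 with DESeq2, 0 with 2 groups, and 1 and 7 with the scores. Without 1 library these counts ranged from 226 to 930 and 823 to 2505 in females with and without nicotine, 0 to 2 and 1521 to 2174 in males, and 0 to 246 between the exposures in males.

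With the myelin score, Pgm2l1 had -0.36 and Cd81 0.02 in females with nicotine, -0.50 and 0.17 in females without, and Ak5 had -0.26 and 2900055J20Rik -0.80 in males without (log2), all short of the threshold. Prr5l and Mob3b changed sign, to -0.02 and -0.05 in males with nicotine, -0.16 and -0.21 without, and 0.14 and 0.16 between the exposures. With the cortical neuron score the values were -0.32 and 0.10, -0.28 and 0.13, and -0.50 and -0.39, and the difference of Pgm2l1 between the exposures in females became -0.04. Without 1 library, Cd81 in females with nicotine ranged from 0.25 to 0.30 and 2900055J20Rik in males without from -0.73 to -0.58. The cause was not tested. Without the 2 farthest libraries, r with the myelin score became 0.57 for Mob3b, -0.82 for Ak5 and 0.83 for Cd81 in females. The female libraries left out there were air replicates 1 and 2. In males it became 0.43 for Cd81 and -0.04 for 2900055J20Rik. With the cortical neuron score it became -0.58 for Mob3b in females and -0.32 for Mob3b, 0.81 for Pgm2l1 and -0.75 for Cd81 in males. Ak5 and Cd81 in females and Cd81 with the cortical neuron score in males thereby passed 0.05, while Mob3b with either score in females, Cd81 with the myelin score and Pgm2l1 in males no longer did.

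With the replicate block in females, 5 of the 6 genes were called with nicotine and 6 without, and Cd81 had 0.26 (adjusted p = 0.0323) with nicotine. The numbers did not pair the libraries, since the 14 pairs with the same number had correlations of -0.273 to 0.266. Depth limits 2900055J20Rik most, with 51 to 163 reads per library.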
